A study of Rattus norvegicus with 6 samples.

Results

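The genes described here are 10 regulators and markers of epithelial identity and of the epithelial-mesenchymal transition (EMT), namely Epcam, Esrp1, Esrp2, Grhl2, Ovol1, Zeb1, Snai1, Twist1, Vim and Cdh2. They were chosen by symbol. Of the 10, 7 had at least 1 row in the deposited gene table, which holds 11778 symbols with a tested row, and 3, Cdh2, Snai1 and Twist1, had no row under their symbols. The 7 genes took 12 rows, all of them tested by the authors, and the row with the longest locus stands for each gene. RUCA-I is an epithelial cell line from a rat endometrial adenocarcinoma, of the Lewis strain. Total RNA was sequenced from 3 independently generated miR-203 -/- lines (KO) and from 3 batches of wild-type cells (WT). Cells of both groups were untreated and were grown to near confluence in medium with foetal calf serum. No source used here says how the microRNA gene was removed. Lines are compared with batches, so a difference between lines and the loss of miR-203 cannot be told apart. Each value is 1 FPKM (fragments per kilobase and per library size) per row and group, pooled by the authors over 3 samples. No SD, sample value or read depth stands behind it here, and the spread between samples enters only through the authors' own Cuffdiff test. A row is called where the authors' q, their p adjusted over all tested rows, is under 0.05.

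Epithelial cells hold together through E-cadherin junctions, claudins and EpCAM, and their gene programme is kept up by transcription factors of the Grainyhead-like and OVO-like families and by the splicing regulators ESRP1 and ESRP2. In EMT, the factors of the SNAIL, ZEB and TWIST families bind E-box sequences and repress such genes, while vimentin and N-cadherin, the product of Cdh2, come up. The microRNAs of the miR-200 family repress ZEB1 and ZEB2 and are themselves repressed by ZEB1, and miR-203 has been described as a further microRNA that ZEB1 represses. The uterine lining differs from many epithelia in that its cells can hold vimentin beside keratins.

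The sequence that the KO lines lack is shown next to the microRNAs best known for holding ZEB1 down. They are RefSeq mature sequences on build GRCr8, 5′ to 3′, with the seed (bases 2 to 8) in capitals.
rno-miR-203a-3p: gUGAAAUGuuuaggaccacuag
rno-miR-200c-3p: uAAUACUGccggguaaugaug
rno-miR-141-3p: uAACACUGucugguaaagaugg
The seed of miR-203a-3p differs from that of miR-200c-3p at 4 of the bases, and the seeds of miR-200c-3p and miR-141-3p differ at 1. No row of the gene table carried the symbol Mir203, so the loss of the microRNA rests on the labels, and target sites in transcripts were not searched for.

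RefSeq promoters (GRCr8, 250 bases before to 50 after the gene start, in the direction of the gene) were matched for 5 of the 10 genes. Those of Epcam, Vim and Zeb1 are shown because these are the members with the highest and lowest levels below and because SNAIL and ZEB factors are known to bind the E-box CAGGTG, written CACCTG on the other strand. The capitals mark this motif on either strand.
Epcam, chr6:12649629-12649928, minus strand: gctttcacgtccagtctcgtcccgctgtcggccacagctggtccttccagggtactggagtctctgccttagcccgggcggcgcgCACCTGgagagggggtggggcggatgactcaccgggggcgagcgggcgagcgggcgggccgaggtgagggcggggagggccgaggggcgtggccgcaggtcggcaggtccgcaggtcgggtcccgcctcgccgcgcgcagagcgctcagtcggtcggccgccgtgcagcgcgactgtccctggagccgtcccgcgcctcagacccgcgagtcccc
Vim, chr17:81577011-81577310, plus strand: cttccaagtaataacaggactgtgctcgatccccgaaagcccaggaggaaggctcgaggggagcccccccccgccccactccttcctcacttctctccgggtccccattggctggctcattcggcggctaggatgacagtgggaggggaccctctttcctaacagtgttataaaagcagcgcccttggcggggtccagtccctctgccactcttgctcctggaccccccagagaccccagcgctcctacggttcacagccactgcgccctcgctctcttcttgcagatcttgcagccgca
Zeb1, chr17:56810604-56810903, minus strand: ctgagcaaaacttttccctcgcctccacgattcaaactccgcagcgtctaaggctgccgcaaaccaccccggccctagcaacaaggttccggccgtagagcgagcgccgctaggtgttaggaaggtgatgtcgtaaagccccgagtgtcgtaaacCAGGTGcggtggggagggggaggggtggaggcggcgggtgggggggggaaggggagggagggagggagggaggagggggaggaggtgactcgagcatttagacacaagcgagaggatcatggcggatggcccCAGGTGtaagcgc
Counted from the gene start, the motif began at −165 in Epcam and at −95 and 38 in Zeb1, and it was not in the Vim window. The Snai1 promoter held it at −142 and the Twist1 promoter did not hold it. Of all 33469 promoters of this length in the table, 18.8% held it, so the letters alone are common.

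None of the 7 genes with a row was called by the authors' Cuffdiff test. None of the 12 rows was called either, and 1 had an unadjusted p under 0.05. Among all tested rows 1.05% were called and 6% had such a p in the authors' deposited table. Among the 10862 symbols that averaged 1 FPKM or more, where 6 of the 7 members lie, 1.91% were called and 9.03% had an unadjusted p under 0.05 in the authors' deposited table. The KO value was above the WT value for Esrp1, Esrp2, Grhl2 and Ovol1 and below it for Epcam, Vim and Zeb1; the order of KO and WT turned for Esrp1, Esrp2 and Grhl2 when the FPKM values were scaled to equal totals, and for Zeb1 when its rows were summed. On the scale log2((KO + 1)/(WT + 1)), used for all log2 ratios computed here, the largest difference in either direction was that of Epcam at −0.26, and the median over the 7 was 0.022. All symbols used had a median of −0.0032 and quartiles of −0.094 and 0.094 on that scale. Scaling to equal totals moves that median to −0.15, and this common shift takes 9 of the 11 list medians given below to under 0, while medians nearest 0 also turn under upper quartile or quantile scaling. Directions below hold for the values as deposited.

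**Figure D1:**
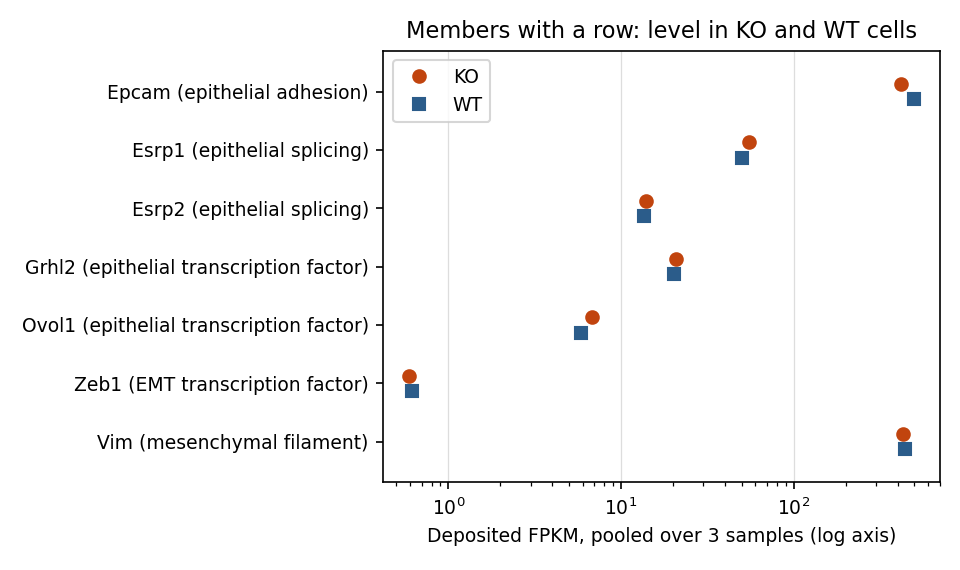
FPKM on a log axis for the 7 genes with a row, circles for KO and squares for WT cells, each 1 value pooled by the authors over 3 samples, with no error available. Epcam and Vim sit highest, with 419 and 429 FPKM in KO cells, Zeb1 sits under 1 FPKM, and in each gene the symbols for KO and WT lie close together.

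The members spanned nearly the whole range of levels in these cells. In KO cells the order of FPKM was Vim, Epcam, Esrp1, Grhl2, Esrp2, Ovol1 and Zeb1, and in WT cells it was the same but for Epcam standing above Vim. Which neighbours in this order differ beyond the spread between samples cannot be said from pooled values. Counted from the top of the 11778 symbols, Vim ranked 139 in KO and 139 in WT cells, and Epcam ranked 147 in KO and 122 in WT cells. Zeb1 ranked 11382 in KO and 11282 in WT cells.

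Epcam encodes the epithelial cell adhesion molecule, a surface glycoprotein of simple epithelia. Its main row (rn6 chromosome 6, 11281777 to 11298599) stood at 419 FPKM in KO cells and 501 FPKM in WT cells, a KO over WT ratio of 0.837. The authors' deposited table gives this row p = 0.0234 and q = 0.638, so the difference did not pass. It was the smallest p among the members. In bulk RNA, fewer cells that make a transcript and less of it per cell cannot be told apart. Of the 352 symbols with a mean of at least 200 FPKM, 37 had a log2 ratio at or below that of Epcam, itself included, 26 had a smaller p and 7 were called. A shorter row named Epcam, at 11275782 to 11280572, stood at 0.985 FPKM in KO cells and 1.11 FPKM in WT cells.

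**Figure D2:**
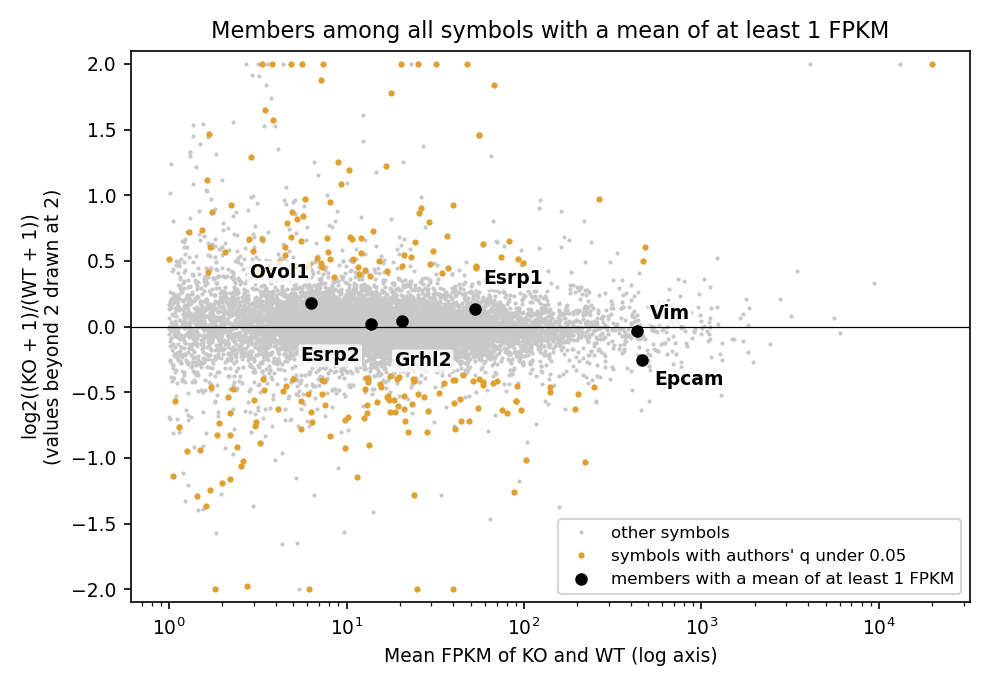
Mean FPKM of KO and WT on a log axis against log2((KO + 1)/(WT + 1)), for every symbol that averaged 1 FPKM or more. The 6 members in black lie inside the grey cloud of symbols that were not called, with Epcam at −0.26 the lowest of them and Ovol1 at 0.18 the highest.

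Partners of EpCAM and the proteases that cleave it were read beside it. Of 16 such genes, 15 were used and none was called; 2 had an unadjusted p under 0.05, and the median log2 ratio was 0.0035. Spint2, a membrane inhibitor of serine proteases, stood at 675 FPKM in KO and 709 FPKM in WT cells. Ctnnb1, beta-catenin, stood at 233 FPKM in KO and 285 FPKM in WT cells, with p = 0.0101 and q = 0.397 in the authors' deposited table. Tspan8, a tetraspanin found in complexes with EpCAM, stood at 232 FPKM in KO and 227 FPKM in WT cells. Cldn7, the claudin that binds EpCAM directly, had 164 FPKM in KO and 151 FPKM in WT cells. Fhl2, a LIM protein that binds the freed inner domain of EpCAM, had the smallest p of this list, with 10.7 FPKM in KO and 14.3 FPKM in WT cells and q = 0.2505 in the authors' deposited table. Neither the adhesion molecule nor any partner used crossed the authors' threshold.

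Esrp1 and Esrp2 encode the epithelial splicing regulatory proteins, which set the epithelial forms of transcripts such as those of Fgfr2, Cd44 and Ctnnd1. Esrp1 (rn6 chromosome 5, 24576985 to 24631736) stood at 55.2 FPKM in KO cells and 50.2 FPKM in WT cells (q = 0.997 in the authors' deposited table). Esrp2 (chromosome 19, 38039596 to 38125532) stood at 13.9 FPKM in KO cells and 13.7 FPKM in WT cells (q = 0.997 in the authors' deposited table). Esrp1 was thus the more abundant of the pair per length, by a ratio of 3.98 in KO and 3.67 in WT cells. The locus listed for Esrp2 is also that of its neighbour Nfatc3, which encodes an NFAT transcription factor and had 63.4 FPKM in KO and 55.3 FPKM in WT cells. How Cuffdiff divided the reads of that locus between the genes is not known here, so the value of Esrp2 is uncertain.

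Of 11 transcripts known to be spliced by the ESRP proteins, 9 were used, none was called and none had a p under 0.05; the median log2 ratio was 0.045. Fgfr2, a receptor for fibroblast growth factors, stood at 59.2 FPKM in KO and 52.8 FPKM in WT cells. Cd44, the hyaluronan receptor, stood at 126 FPKM in KO and 135 FPKM in WT cells. Ctnnd1, p120-catenin, stood at 85.7 FPKM in KO and 83.0 FPKM in WT cells, and the row shared by Puf60 and Scrib at 87.2 FPKM in KO and 87.9 FPKM in WT cells. These are sums over all forms of a gene, so they do not show which exons were used. Other splicing factors tied to EMT were all present, 10 of 10, with none called, none under p of 0.05 and a median of 0.022. The row shared by Hmha1 and Ptbp1 stood at 222 FPKM in KO and 218 FPKM in WT cells, Srsf1 at 143 FPKM in both, and Hnrnpm at 118 FPKM in KO and 103 FPKM in WT cells. Qki, matched under its older symbol Qk, had the lowest log2 ratio of these at −0.63 with 5.13 FPKM in KO and 8.47 FPKM in WT cells, and p = 0.339 in the authors' deposited table.

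Grhl2 and Ovol1 encode epithelial transcription factors, a Grainyhead-like activator of junction genes and an OVO-like zinc finger repressor that acts against EMT factors. Grhl2 (rn6 chromosome 7, 76058615 to 76197357) stood at 21.0 FPKM in KO cells and 20.3 FPKM in WT cells (q = 0.997 in the authors' deposited table). An unnamed row with the same locus had 0.483 FPKM in KO and 0.418 FPKM in WT cells. Ovol1 had 4 rows with the same listed locus (chromosome 1, 220926577 to 220938867), so the one with the highest mean was taken. It stood at 6.80 FPKM in KO cells and 5.87 FPKM in WT cells, with p = 0.154 and q = 0.997 in the authors' deposited table. The other 3 rows had 0.906, 0.997 and 1.21 FPKM in KO cells and 0.864, 0.8895 and 0.846 FPKM in WT cells, in the same order of rows. The KO value was above the WT value in each of the 4 Ovol1 rows, and none of them passed. These rows share a listed locus and the same libraries, so they are not separate observations. How Cuffdiff divided the reads between them is not known here.

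Further epithelial transcription factors were read from a list of 22, of which 14 were used, 2 were under 1 FPKM and 6 had no tested row. None was called and 2 had an unadjusted p under 0.05. Their median log2 ratio was −0.0047, with 7 above and 7 below 0. Elf3, an epithelial ETS factor, stood at 75.9 FPKM in KO and 68.3 FPKM in WT cells, and its relative Ehf at 47.5 FPKM in KO and 47.02 FPKM in WT cells. Pax8, a paired-box factor of the Müllerian tract, had 71.5 FPKM in KO and 75.4 FPKM in WT cells. Ovol2, the relative of Ovol1, stood at 8.55 FPKM in KO and 8.12 FPKM in WT cells. Sox17, a factor of endometrial glands, had the smallest p in this list, with 30.1 FPKM in KO and 36.4 FPKM in WT cells and q = 0.627 in the authors' deposited table. Tp63, the master factor of stratified epithelium and a known miR-203 target, had no tested row under its symbol.

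**Figure D3:**
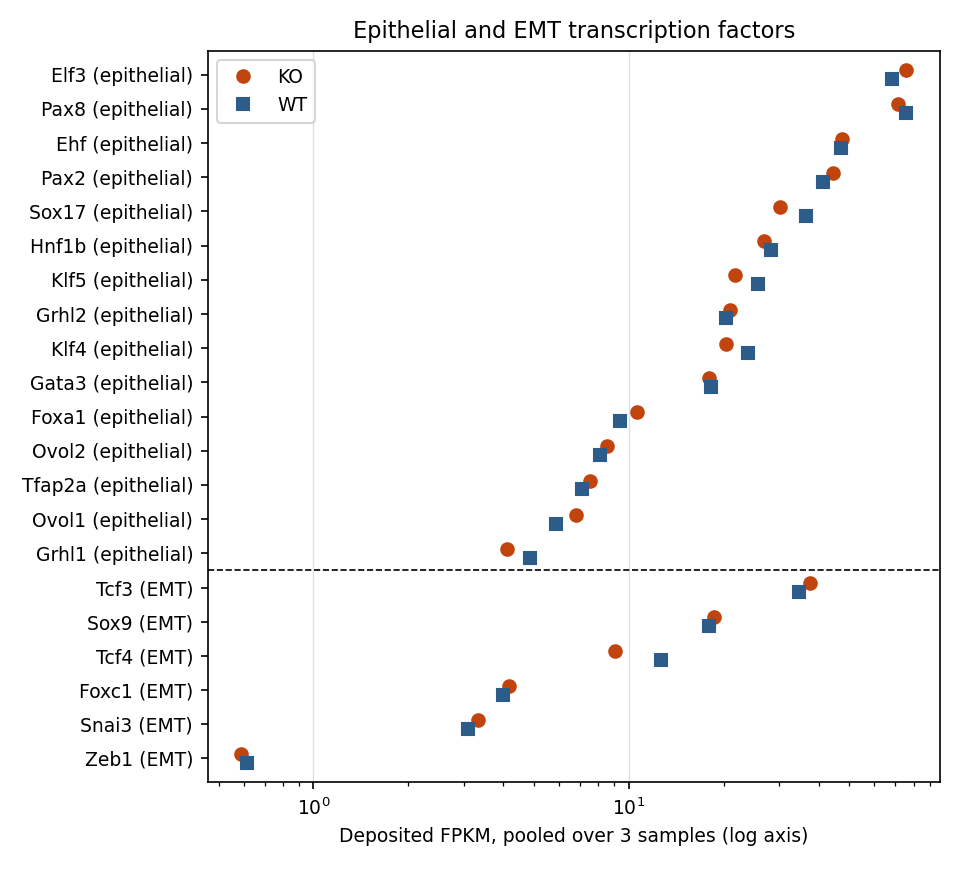
FPKM on a log axis of 15 of the 16 epithelial transcription factors (1 is not shown) that averaged 1 FPKM or more (above the dashed line) and of 5 EMT transcription factors with Zeb1 added (below it), circles for KO and squares for WT cells, pooled over 3 samples with no error available. Elf3 tops the plot with 75.9 FPKM in KO and 68.3 FPKM in WT cells, and Zeb1 ends it with 0.589 FPKM in KO and 0.615 FPKM in WT cells.

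Junction and surface genes that GRHL2 and OVOL factors are known to keep up were measured almost completely, with 26 of 27 used. None was called, 2 had a p under 0.05, and the median log2 ratio was 0.0016 with 13 above and 13 below 0. Their values summed to 2793 FPKM in KO and 2777 FPKM in WT cells. The lowest log2 ratio was −0.23 and the highest 0.24. Cdh1, E-cadherin, stood at 144 FPKM in KO and 152 FPKM in WT cells. Cldn4, a tight junction claudin, had 228 FPKM in KO and 213 FPKM in WT cells. Those with a p under 0.05 were the simple-epithelium keratins Krt8, with 241 FPKM in KO and 204 FPKM in WT cells at a row of 999 bp, and Krt18, with 121 FPKM in KO and 103 FPKM in WT cells. Their q in the authors' deposited table was 0.701 for Krt8 and 0.779 for Krt18. The gene of this list without a tested row was Krt19, a further keratin taken as an epithelial marker. The cells of both groups thus carry the transcripts of the other epithelial markers, Krt19 left aside.

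Zeb1, the E-box repressor at the centre of many EMT programmes, had 2 rows, both near the bottom of the table. Its main row (rn6 chromosome 17, 54658586 to 54670737) stood at 0.589 FPKM in KO cells and 0.615 FPKM in WT cells (q = 0.997 in the authors' deposited table). A second row at 54656695 to 54658054 stood at 0.564 FPKM in KO cells and 0.415 FPKM in WT cells, with p = 0.265 in the authors' deposited table. The 2 rows differ in which group is higher, and neither passed. The loci of these rows are 12151 and 1359 bp and do not overlap. How much of the gene they cover is not known here, so the level of the whole gene is uncertain. Per length, the level of Vim was 729 times that of the main Zeb1 row in KO and 714 times in WT cells.

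Snai1 and Twist1, which encode the SNAIL zinc finger repressor and the TWIST basic helix-loop-helix factor, had no row under their symbols and are not analysed here. Of 16 further EMT transcription factors, 11 had no tested row, Snai2, Zeb2 and Twist2 among them, and 5 were used. None of the 5 was called, none had a p under 0.05, and the median log2 ratio was 0.054. Tcf3, an E protein, stood at 37.6 FPKM in KO and 34.6 FPKM in WT cells. Sox9 had 18.7 FPKM in KO and 18.0 FPKM in WT cells. Tcf4, another E protein, had 9.07 FPKM in KO and 12.7 FPKM in WT cells, with p = 0.186 in the authors' deposited table. Snai3, the one SNAIL family member with a tested row, had 3.33 FPKM in KO and 3.10 FPKM in WT cells. Cofactors and stability regulators of SNAIL and ZEB proteins were present, with 14 of 16 used, none called, none with a p under 0.05 and a median of 0.011. Among them Hdac1, a histone deacetylase, had 100.4 FPKM in KO and 102 FPKM in WT cells, Ctbp1, the corepressor that ZEB1 recruits, 63.7 FPKM in KO and 61.5 FPKM in WT cells, and Suz12, a Polycomb subunit, 57.9 FPKM in KO and 57.7 FPKM in WT cells.

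Vim encodes vimentin, the intermediate filament protein of mesenchymal cells. Its single row (rn6 chromosome 17, 80882338 to 80891205) stood at 429 FPKM in KO cells and 439.6 FPKM in WT cells (q = 0.997 in the authors' deposited table). Vim and Epcam thus stood at like levels per length in the same libraries, with an Epcam over Vim ratio of 0.976 in KO and 1.14 in WT cells. Pooled RNA does not show whether single cells hold both. Of 12 genes whose products bind or copolymerise with vimentin or belong to the same filament family, 8 were used, none was called and 3 had a p under 0.05. All 8 had a log2 ratio above 0, with a median of 0.15. Plec at 0.0065, Ywhaz at 0.011 and Lmna at 0.012 lay close to 0. Pkp2 had the highest log2 ratio at 0.41, with p = 0.218 in the authors' Cuffdiff test. Scaling to equal totals, which moves all symbols down alike, left 4 of the 8 above 0 and the list median at −0.0092. Relative to the median of all symbols, the list median was 0.15 as deposited and 0.14 under that scaling. Ywhaz, a 14-3-3 protein, stood at 236 FPKM in KO and 235 FPKM in WT cells. Synm, synemin, an intermediate filament protein that needs partners such as vimentin to polymerise, had 9.54 FPKM in KO and 7.67 FPKM in WT cells and q = 0.369 in the authors' deposited table. Krt8 and Krt18, given above, are the other 2 with a p under 0.05.

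Of 28 other mesenchymal genes, 16 had no tested row, among them Sparc, Tagln and Cdh11, 2 were under 1 FPKM and 10 were used. Among these 10, 1 rose, 1 fell and 8 did not pass, and 5 had a p under 0.05. The median log2 ratio was 0.073. Bgn, the proteoglycan biglycan (chromosome X, 157319048 to 157324218), rose to 7.26 FPKM in KO cells, against 4.95 FPKM in WT cells (q = 0.0395 in the authors' deposited table). Fn1, fibronectin, the most abundant of the 10, stood at 242 FPKM in KO and 199 FPKM in WT cells, with p = 0.0185 and q = 0.573 in the authors' deposited table. Mmp14, a membrane metalloprotease, had 12.99 FPKM in KO and 16.3 FPKM in WT cells, and Itga5, the fibronectin receptor chain, 2.45 FPKM in KO and 3.24 FPKM in WT cells; neither passed. So the called mesenchymal genes went in opposite directions.

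Cdh2, N-cadherin, had no row under its symbol and is not analysed here. Of 10 other cadherins, 4 were used and the rest had no tested row. Cdh16, known as kidney-specific cadherin (chromosome 19, 568101 to 592482), fell to 116 FPKM in KO cells, against 163 FPKM in WT cells (q = 0.00756 in the authors' deposited table). Of the 9 other symbols that averaged 1 FPKM or more within 5 megabases of Cdh16, 2 were higher in KO cells, with a median log2 ratio of −0.32; the part of position in its change was not tested. Cdh3, P-cadherin, stood at 48.1 FPKM in KO and 39.1 FPKM in WT cells, with p = 0.0066 and q = 0.309 in the authors' deposited table. Cdh6, K-cadherin, had 12.1 FPKM in KO and 15.2 FPKM in WT cells. With Cdh1 as given above, 1 of the 4 was called, and the median log2 ratio was −0.19.

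TGF-beta, the best known inducer of EMT, signals through SMAD proteins. Of 16 genes listed for this signalling, 14 were used, 1 rose, none fell and 13 did not pass, with a median log2 ratio of 0.0085. The list mixes ligands, receptors, SMAD genes and Id genes, so these counts give no direction of the signalling. Id1, an inhibitor of basic helix-loop-helix factors (chromosome 3, 148215575 to 148216715), rose to 71.7 FPKM in KO cells, against 45.9 FPKM in WT cells (q = 0.00756 in the authors' deposited table). Id1 and Cdh16 both had p = 5e-05 in the authors' Cuffdiff test, the smallest p deposited. Their equal q therefore does not rank them. Within 5 megabases of Id1, 70 of 80 other symbols (87.5%) were higher in KO cells, with a median log2 ratio of 0.22, where 48.9% of all symbols used were higher; the part of position in its change was not tested. Within the same distance of Bgn, which rose, 15 of 40 other symbols (37.5%) were higher in KO cells, with a median log2 ratio of −0.047. Around the 7 members the share ran from 24.2% for Grhl2 to 61.5% for Vim. Id2 had 88.3 FPKM in KO and 76.2 FPKM in WT cells, and Tgfbr2, the type II receptor, 122 FPKM in KO and 131 FPKM in WT cells; neither passed. The ligand Tgfb2 had 14.5 FPKM in KO and 11.7 FPKM in WT cells and q = 0.482 in the authors' deposited table.

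Over the 11 lists described beside the members, 122 different genes were used, of which 2 rose, 2 fell and 118 did not pass, which makes 3.28% called against 1.91% of all such symbols, of which 0.865% were called higher and 1.05% lower. The lists were drawn up with earlier results known, so nothing is read from that share. The 4 called genes kept their direction under all 3 other scalings. The log2 ratios ranged from −0.66 to −0.48 for Cdh16, 0.33 to 0.48 for Bgn and 0.47 to 0.65 for Id1 over those scalings.

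**Figure D4:**
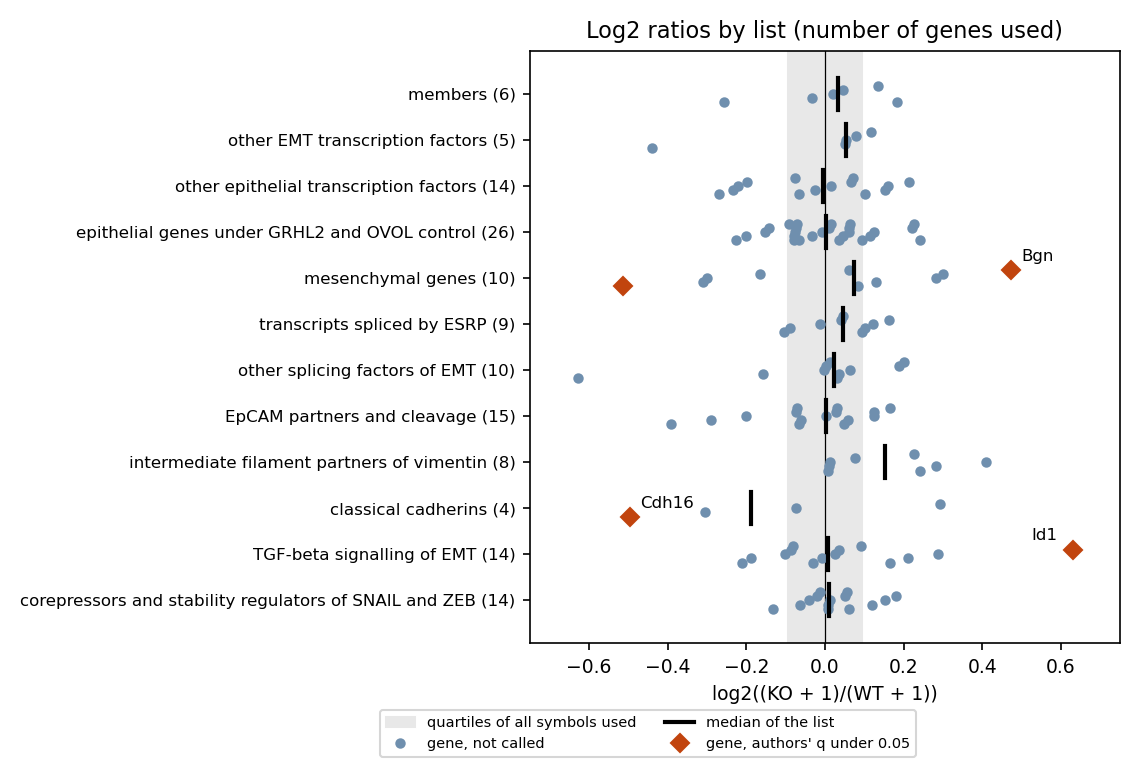
Log2((KO + 1)/(WT + 1)) of each gene that averaged 1 FPKM or more, by list, with the number of genes used in brackets; black bars are medians, diamonds are genes with the authors' q under 0.05, and the grey band spans the quartiles of all symbols, −0.094 to 0.094. There are 4 diamonds, Bgn, Cdh16 and Id1 among them, and no member is one.

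Most markers of other cell types had no tested row under their symbols. Such a gap does not show that a transcript is absent. As many as 7071 rows carried no symbol and 272 had too few reads for the test, and the epithelial marker Krt19 had no tested row either. No tested row was found for any of 7 endothelial and 6 neural markers. Of 9 fibroblast markers only Col1a1 had one, with 1.17 FPKM in KO and 1.43 FPKM in WT cells at a row of 553 bp. Of 6 muscle markers 2 had tested rows, and these summed to 4.32 FPKM in KO and 2.25 FPKM in WT cells. Of 8 leukocyte markers 3 had tested rows, summing to 30.3 FPKM in KO and 39.7 FPKM in WT cells. The defining marker Ptprc was not among them. Of the 3, Csf1r, at a row of 4712 bp, fell to 0.2004 FPKM in KO cells, against 0.791 FPKM in WT cells (q = 0.0187 in the authors' deposited table). Cd79a had 23.9 FPKM in KO and 31.7 FPKM in WT cells, and neither it nor Cd14 passed. The part of such cells in the values of the members was not tested.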

How the data were processed

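Libraries were strand-specific, per the labels' protocols. The submitters' processing notes name TopHat (listed as 0.9), Cufflinks 2.2.1, Cuffdiff 2.2.1.3 and build rn6, but no source used here gives annotation or settings. The authors deposited 1 FPKM value per row and group, a log2 fold of KO over WT, a test statistic (a score), a p-value and a q-value, per the file headers. Values in FPKM are scaled by length and library size, so depth is unknown. The cells use decimal commas, read as points.

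Of 26751 rows, 26459 were tested by the authors; only these were used. Their q-values matched Benjamini-Hochberg adjusted p-values recomputed over the tested rows. For all 12 member rows the deposited log2 fold was within 0.01 of the ratio of the FPKM values. Had there been values per sample, limma would have been used; with 1 value per group no test was run here. Per symbol the longest locus was taken, ties by mean FPKM. Lists used genes that averaged 1 FPKM or more and log2 ratios with a pseudocount of 1, which understates changes of low genes. Listed symbols without a row were matched through RefSeq synonyms, which gave 1 match; 4 of the used rows hold 2 symbols. The adjustment and row choice were tested on simulated data.

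The members and lists were chosen with earlier results of these data known. Named are all members, every called gene of a list and, where fewer than 3 are called, the most abundant up to 3, and Cdh1, Cdh3, Fn1, Zeb2, Snai2, Cldn7, Ovol2 and Tp63; further names were picked with their values in view, as was the window of 5 megabases. Some genes that this rule takes are counted but not reported by name. Python 3.11.15, pandas 2.3.3, NumPy 2.4.6 and matplotlib 3.10.9 were used.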

Additional observations from a re-analysis of the deposited data

How the results depend on the processing

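No member was called under any of the 6 other settings tried, namely q recomputed for rows averaging at least 1 or 5 FPKM, q under 0.01 or 0.1, the row with the highest mean, or all rows. The q of Epcam was 0.535 with the first and 0.509 with the second of these. The setting of q under 0.01 could not add a call, since no member was called at the wider main threshold. The row with the highest mean was the main row of each member. The setting with all rows repeats the result that no member row was called. So only the recomputed q and q under 0.1 could have added a call. The count of 4 called genes in the lists stayed at 4 under all 5 alternatives. Of 56 recomputed log2 ratios of members, 52 kept their sign, but many of them could not change it. Another pseudocount or the deposited fold keeps the order of KO and WT. The row with the highest mean was the main row, and a sum changes nothing for a gene with 1 row. The scalings and the sums over several rows could change the sign. With FPKM scaled to equal totals, Esrp1 went to −0.026, Esrp2 to −0.13 and Grhl2 to −0.11; relative to the shift of all symbols by that scaling they were at 0.13, 0.021 and 0.042. With all rows summed, Zeb1 went to 0.084. Of 36 recomputed list medians, 33 kept their sign. Where a list had no gene under the minimum, changing the minimum left its median as it was. The median of the further epithelial transcription factors became 0.041 without a filter and 0.015 with a minimum mean of 5 FPKM, and that of the TGF-beta list became −0.0082 with the minimum of 5. No paired analysis was possible because each group has a single pooled value, so leaving out each replicate was not run either.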

Other observations

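A row named Mir429 (rn6 chromosome 5, 173486935 to 173488320) was found after the values were seen. Mir429 belongs to the miR-200 family, whose members hold ZEB1 down. With a locus of 1385 bp the row is longer than a microRNA hairpin, and its identity rests on the symbol. It stood at 5.22 FPKM in KO cells and 4.47 FPKM in WT cells, with p = 0.241 and q = 0.997 in the authors' deposited table, so it did not pass.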
